A study of Mus musculus with 8 samples.

Results

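The 42 genes described here encode the machinery of chromosomal DNA replication and the enzymes that supply it with deoxynucleotides. They were taken by gene symbol from a table of 27534 genes measured by RNA sequencing of mouse pancreatic islets, the hormone-secreting cell clusters of the pancreas. All 42 were in the table, and all 42 were among the 15442 genes that passed the filter on low counts. The high glucose group was 4 libraries from islets of C57BL/6J mice kept for 72 h in medium with 20 mM glucose, and the low glucose group was 4 libraries from islets of the same strain kept for 72 h in 7.5 mM glucose. Both groups were cultured in RPMI medium with serum, and the labels name no genetic change, age, sex or pooling of animals. The series title names IRE1α, a sensor of unfolded protein, as a limit on Golgi expansion in β cells that adapt to demand. The comparison addresses how the islet transcriptome differs between the 2 glucose concentrations. Libraries are numbered 1 to 4 in each group, and nothing says that they came from separate animals, so p-values measure only the spread between these samples, which may be technical.

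Total counts were 20516328 to 24905499 in high glucose libraries and 19543045 to 24949515 in low glucose libraries. A level of 3 counts corresponded to 0.121 to 0.156 CPM (counts scaled to library size) in high glucose and 0.114 to 0.161 CPM in low glucose, a floor that covers counting error only. The tissue label held against its markers: Ins2 averaged 160598 ± 24924 CPM in high glucose and 153598 ± 32412 CPM in low glucose, and Gcg averaged 16926 ± 5069 and 19298 ± 6291 CPM in the same order (SD, n = 4 each). Of all genes tested, 2023 were higher in high glucose and 1831 lower.

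Before a cell divides, its DNA is copied from many origins. The origin recognition complex (ORC) marks an origin in G1 phase and, with CDC6 and CDT1, loads the ring of MCM2 to MCM7 onto DNA, a step called licensing. At the start of S phase, the kinase CDC7 with its partner DBF4 phosphorylates that ring, and CDC45 and the GINS complex join it to form the moving helicase. Polymerase α with primase starts each strand, polymerase ε extends the leading strand and polymerase δ the lagging strand, both tethered by the clamp PCNA. Many of these genes are textbook targets of E2F, a family of transcription factors released from the retinoblastoma protein as cells enter S phase. Adult β cells rarely divide, and glucose is a known stimulus of their division in rodents.

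The windows from 250 bases before to 50 after the annotated start site were read for 36 of the 42 genes from RefSeq promoter sequences (GRCm38.p6). They are shown because E2F-like letters were more frequent in them than in promoters at large. Of 36 windows, 21 (58.3%) held at least 1 of TTCCCGC or TTGGCGC or TTCGCGC or TTGCCGC on either strand, against 16.8% of the windows of 11310 tested genes and 14.4% of all 15083 windows, with matches that overlap each other counted once. These letters stood in 17 of the 29 windows of genes that rose and in 4 of the 7 windows of the other genes. In the 150 bases before the start site the shares were 33.3% of the members and 9.68% of tested genes. The letters CCAAT, bound by NF-Y, stood on either strand in 61.1% of member windows and 38.3% of tested-gene windows, and GGGCGG, bound by SP1, in 69.4% and 63.4%. TTTGAA, known from promoters of mitotic genes, stood in 19.4% of member windows and 11.7% of tested-gene windows. The median GC content was 58.0% in member windows and 60.7% in tested-gene windows. A match is a description of letters and not a binding site.

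One promoter of each functional group, that of the gene with the smallest adjusted p among those with a window, is given 5′ to 3′ on the gene's strand, with E2F-like matches in capitals. The windows lie at chr11:98907901-98908200 (+ strand) for Cdc6, chr16:18811923-18812222 (− strand) for Cdc45, chrX:93632106-93632405 (− strand) for Pola1, chr4:132768110-132768409 (+ strand) for Rpa2, chr12:24708004-24708303 (+ strand) for Rrm2 and chr17:56303087-56303386 (+ strand) for Uhrf1. The start site of the Cdc6 window lies 350 bases from the gene start in the deposited table, and those of the others lie within 28 bases of it. Pola1 held 4 matches, Cdc6, Rpa2, Rrm2 and Uhrf1 held 1 each, and Cdc45 held none but had CCAAT at 2 places.
Cdc6: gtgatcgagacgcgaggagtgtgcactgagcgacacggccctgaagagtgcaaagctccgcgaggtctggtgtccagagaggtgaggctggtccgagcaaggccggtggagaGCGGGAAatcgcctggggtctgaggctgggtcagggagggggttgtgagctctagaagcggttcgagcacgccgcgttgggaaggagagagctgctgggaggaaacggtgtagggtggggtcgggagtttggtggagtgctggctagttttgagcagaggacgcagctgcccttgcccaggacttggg
Cdc45: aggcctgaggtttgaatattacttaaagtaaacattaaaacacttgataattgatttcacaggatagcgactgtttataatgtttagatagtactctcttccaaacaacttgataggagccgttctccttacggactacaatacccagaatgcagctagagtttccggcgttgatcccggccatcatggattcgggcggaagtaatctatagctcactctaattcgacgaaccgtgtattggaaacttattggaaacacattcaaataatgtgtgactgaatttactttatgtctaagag
Pola1: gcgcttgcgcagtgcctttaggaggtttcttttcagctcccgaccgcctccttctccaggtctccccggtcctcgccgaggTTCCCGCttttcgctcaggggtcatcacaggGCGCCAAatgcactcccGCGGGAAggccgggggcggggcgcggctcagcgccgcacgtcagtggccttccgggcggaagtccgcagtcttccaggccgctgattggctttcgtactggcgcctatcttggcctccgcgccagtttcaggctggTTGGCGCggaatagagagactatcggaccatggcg
Rpa2: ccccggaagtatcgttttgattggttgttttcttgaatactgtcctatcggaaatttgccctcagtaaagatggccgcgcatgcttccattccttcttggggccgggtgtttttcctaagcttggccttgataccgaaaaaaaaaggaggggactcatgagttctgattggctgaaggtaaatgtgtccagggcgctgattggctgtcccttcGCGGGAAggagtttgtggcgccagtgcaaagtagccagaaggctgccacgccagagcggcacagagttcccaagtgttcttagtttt
Rrm2: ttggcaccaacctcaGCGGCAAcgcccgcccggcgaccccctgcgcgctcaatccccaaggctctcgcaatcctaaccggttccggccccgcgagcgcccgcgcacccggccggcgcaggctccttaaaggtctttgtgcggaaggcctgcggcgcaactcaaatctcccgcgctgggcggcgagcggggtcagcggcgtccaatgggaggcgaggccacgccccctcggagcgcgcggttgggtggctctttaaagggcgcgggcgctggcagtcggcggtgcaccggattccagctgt
Uhrf1: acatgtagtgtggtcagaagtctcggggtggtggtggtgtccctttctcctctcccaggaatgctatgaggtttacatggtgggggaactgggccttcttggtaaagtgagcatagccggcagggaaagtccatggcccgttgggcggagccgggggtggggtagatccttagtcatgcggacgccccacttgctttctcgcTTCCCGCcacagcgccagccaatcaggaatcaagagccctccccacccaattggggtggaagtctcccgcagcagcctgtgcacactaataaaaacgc

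After 72 h in high glucose, transcripts from every stage of replication were more abundant, from the licensing of origins to the copying of chromatin. Of the 42 genes, 34 rose, none fell and 8 did not pass the threshold (edgeR quasi-likelihood test, Benjamini-Hochberg adjusted p under 0.05), whereas 13.1% of all tested genes rose and 11.9% fell. Before adjustment the count of members lower at p under 0.05 was also 0 with edgeR, and DESeq2 and limma-voom called 0 members lower. All 42 fitted fold changes were above 0 on the log2 scale, with a median of 0.87, against a median of −0.01 and quartiles of −0.24 and 0.25 over all tested genes. A rise of at least 2-fold was called for 17 of the 42, against 3.46% of tested genes. In 34 of the 42 every high glucose library lay above every low glucose library, which was so for 13.7% of tested genes. Summed over the 42 genes, the level was 744, 751, 619 and 688 CPM in high glucose libraries 1 to 4, against 418, 484, 399 and 434 CPM in low glucose libraries 1 to 4. The sums did not overlap between the groups, and the ratio of their means was 1.62. In bulk tissue, more cells of a type and more RNA per cell cannot be told apart. Between 30 and 37 members rose when 1 library was left out, and 32 rose with library size alone as scaling, where 37.8% of all called genes were higher instead of 52.5% and the median of all genes was −0.09.

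**Figure D1:**
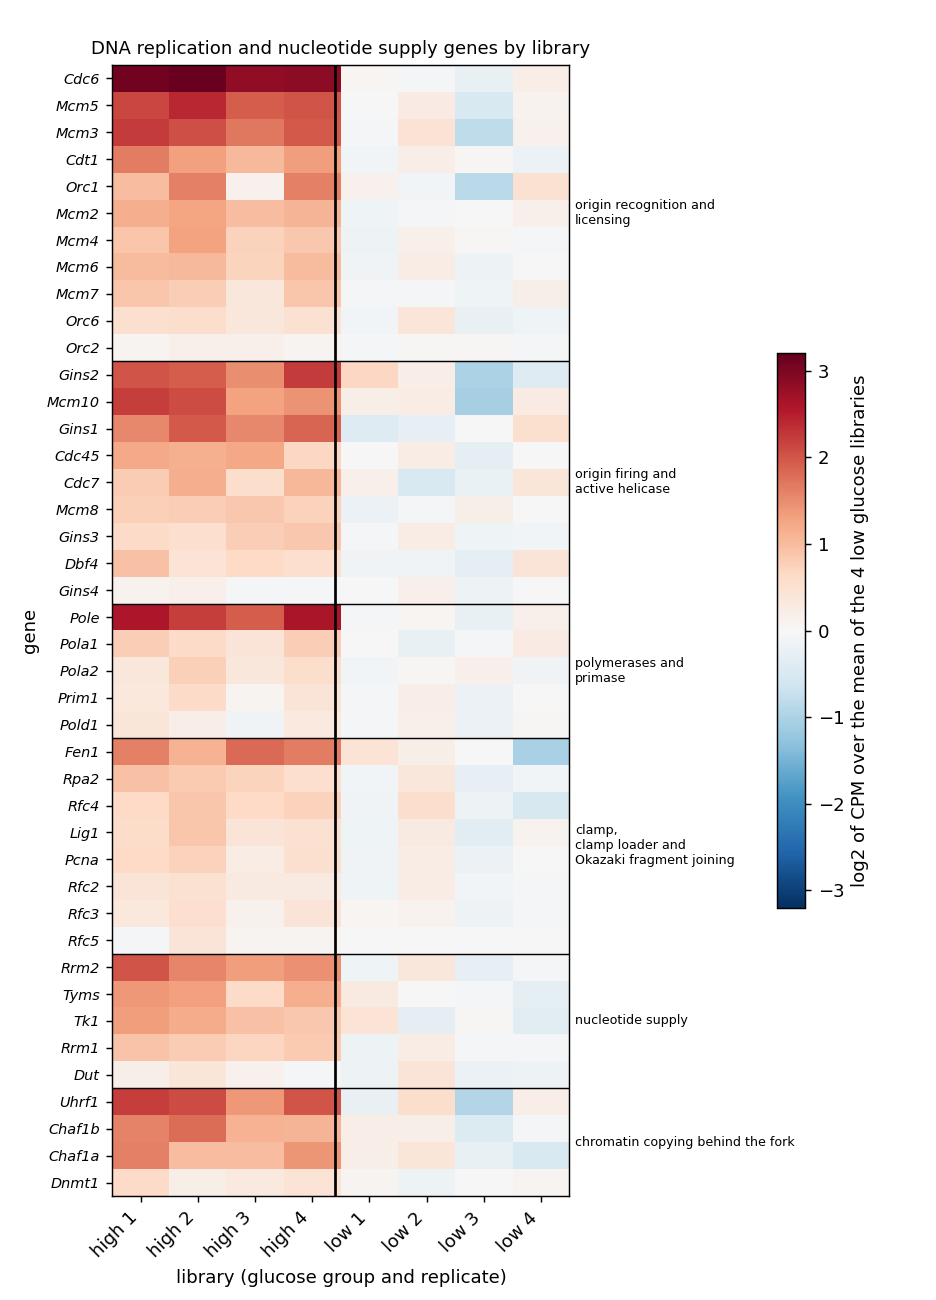
Level of each of the 42 genes in each library, as log2 of its CPM over the mean CPM of the 4 low glucose libraries, with genes grouped by role and the high glucose libraries left of the black line. Most rows are red in all 4 high glucose libraries, Cdc6 and Pole most strongly, while Orc2, Gins4, Rfc5 and Dut stay near 0.

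Of 11 genes of origin recognition and licensing, 9 rose, with a median log2 fold change of 1.13. Cdc6, which recruits the MCM ring to ORC, had the largest change of all 42 genes. Its transcript (ENSMUSG00000017499, GRCm38 chromosome 11, 98907801 to 98923940) measured 5.29, 5.56, 4.43 and 4.49 CPM in high glucose libraries 1 to 4, against 0.644, 0.589, 0.521 and 0.720 CPM in low glucose libraries 1 to 4. The groups lay far apart, and Cdc6 rose 7.91-fold (log2 2.98 ± 0.20 SE, adjusted p = 8.21e-06). Mcm5, a subunit of the ring (ENSMUSG00000005410, chromosome 8, 75109569 to 75128439), measured 23.8, 28.7, 20.6 and 22 CPM in high glucose, against 5.38, 6.53, 3.83 and 5.86 CPM in low glucose. It rose 4.40-fold without overlap (log2 2.14 ± 0.17, adjusted p = 1.62e-05). Mcm2, another subunit, had 36.3, 39.0, 32.1 and 34.7 CPM in high glucose and 14.8, 15.5, 16.5 and 18.1 CPM in low glucose, a narrow spread in both groups. It rose 2.19-fold (log2 1.13 ± 0.09, adjusted p = 1.83e-05).

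The other ring subunits rose as well. Mcm3 averaged 16.3 ± 2.54 CPM in high glucose and 4.08 ± 1.37 CPM in low glucose (4.00-fold), and Mcm4 averaged 21.3 ± 3.75 and 11 ± 1.02 CPM in the same order (1.95-fold). Mcm6 averaged 33.1 ± 3.24 and 17.2 ± 2.10 CPM (1.93-fold), and Mcm7 28.8 ± 4.60 and 17.3 ± 1.65 CPM (1.67-fold), again with high glucose before low glucose. Cdt1, which delivers the ring to origins, averaged 7.22 ± 1.21 CPM in high glucose and 2.83 ± 0.335 CPM in low glucose (2.56-fold). Adjusted p-values of these 5 genes were between 0.000142 for Mcm6 and 0.00163 for Mcm7, and none of their groups overlapped.

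Of the 3 ORC subunits among the members, only Orc6 passed the threshold. Orc1, the subunit that is degraded in S phase in human cells, measured 0.674, 1.04, 0.377 and 1.05 CPM in high glucose, against 0.379, 0.321, 0.189 and 0.480 CPM in low glucose. High glucose library 3 lay inside the low glucose range, and at these few counts the log2 difference of 1.18 ± 0.43 did not pass the threshold (adjusted p = 0.0690). It passed without high glucose library 3 (adjusted p = 0.0365) and with the replicate number as a block (0.0387). Orc2, a core subunit present through the cell cycle, measured 29.4, 30.9, 30.7 and 29.4 CPM in high glucose, against 26.7, 28.4, 28.5 and 27.1 CPM in low glucose. The 4 high glucose values lay above the 4 low glucose values, but by a log2 difference of 0.12 ± 0.06 that was not called (adjusted p = 0.196). Orc6, the smallest subunit, averaged 24.0 ± 1.38 CPM in high glucose and 17.1 ± 3.56 CPM in low glucose and rose 1.40-fold (adjusted p = 0.0201), although low glucose library 2, at 22.4 CPM, lay above the lowest high glucose library at 22.1 CPM. Its call was lost, at adjusted p-values of 0.0508 to 0.0612, without high glucose library 1 or 2 or low glucose library 1, 3 or 4.

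**Figure D2:**
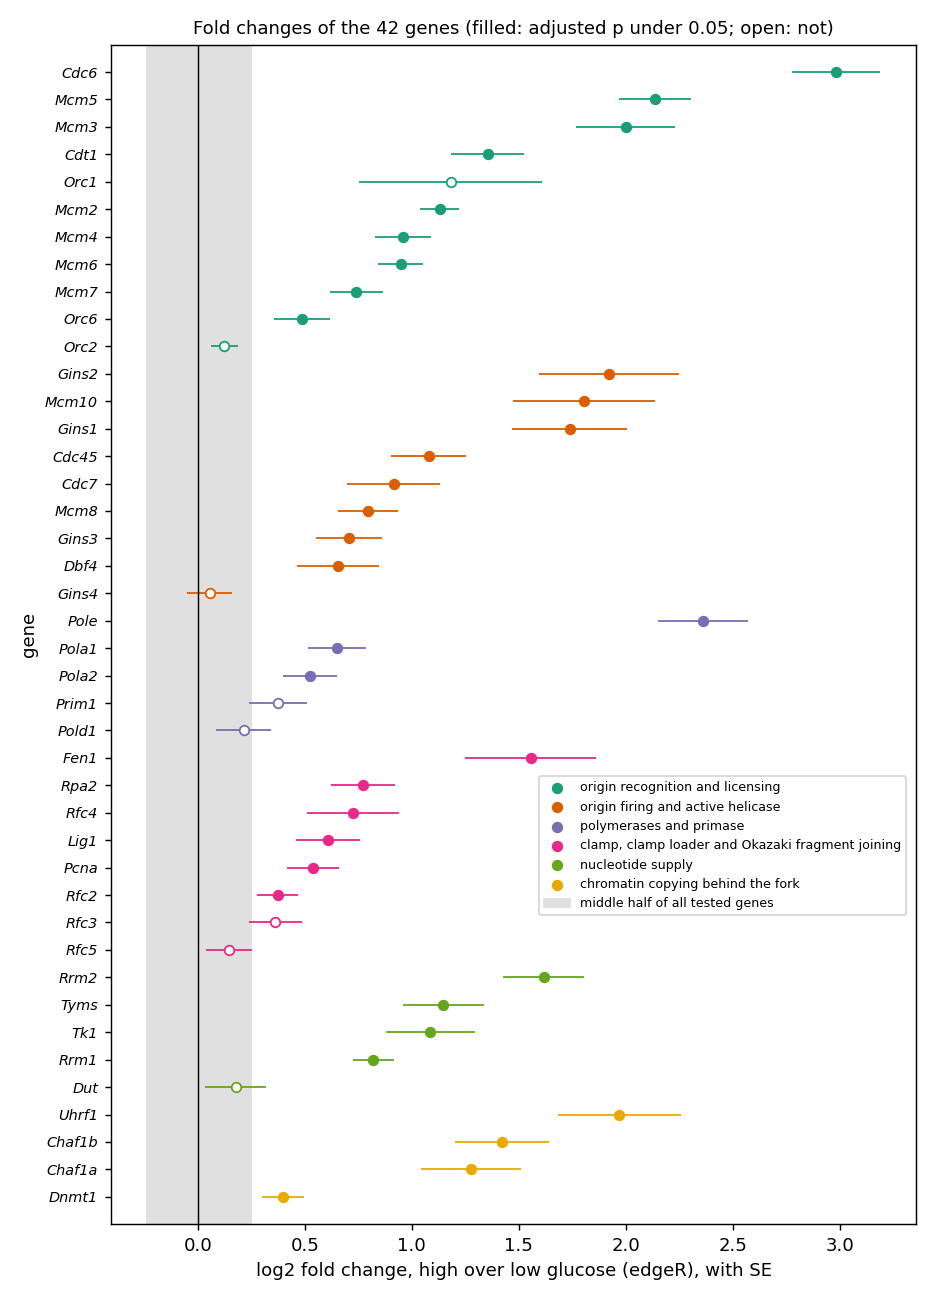
Log2 fold change of high over low glucose for each of the 42 genes, with its standard error, colored by role, and filled where the adjusted p was under 0.05. The grey band spans the quartiles of all tested genes, from −0.24 to 0.25, and the largest value is that of Cdc6 at 2.98.

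Of 9 genes that fire origins and form the active helicase, 8 rose, with a median log2 fold change of 0.92. Gins1, a GINS subunit (ENSMUSG00000027454, chromosome 2, 150905400 to 150931280), measured 2.07, 2.75, 2.07 and 2.59 CPM in high glucose, against 0.531, 0.589, 0.710 and 1.01 CPM in low glucose. It rose 3.34-fold without overlap (log2 1.74 ± 0.27, adjusted p = 0.00103). Gins2, a second subunit, had 4.62, 4.42, 3.21 and 5.38 CPM in high glucose and 1.82, 1.34, 0.568 and 0.864 CPM in low glucose. The low glucose libraries spread more than 3-fold among themselves, yet all lay below the high glucose libraries, and Gins2 rose 3.79-fold (log2 1.92 ± 0.33, adjusted p = 0.00181). Cdc45, the helicase cofactor, measured 9.05, 8.47, 9.10 and 6.11 CPM in high glucose, against 3.87, 4.55, 3.17 and 3.89 CPM in low glucose. It rose 2.11-fold (log2 1.08 ± 0.17, adjusted p = 0.00134), with high glucose library 4 the lowest of its group and still above every low glucose library.

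Gins3 rose 1.63-fold, at 5.74 ± 0.606 CPM in high glucose and 3.52 ± 0.412 CPM in low glucose. Gins4, the remaining GINS subunit, did not pass the threshold. It measured 13.9, 14.4, 12.3 and 12.5 CPM in high glucose, against 12.6, 14.4, 11.5 and 12.6 CPM in low glucose, and the groups overlapped. The log2 difference of 0.05 ± 0.10 (adjusted p = 0.751) was −0.02 with library size alone as scaling, the only change of sign among the 42 genes in any of 16 alternative settings.

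Mcm10, which helps to activate the assembled helicase, averaged 3.51 ± 1.09 CPM in high glucose and 0.997 ± 0.350 CPM in low glucose (3.50-fold). Mcm8, a relative of the ring subunits that acts mainly in repair of breaks, averaged 6.35 ± 0.246 and 3.66 ± 0.389 CPM in the same order (1.74-fold). The kinase gene Cdc7 averaged 6.01 ± 1.07 CPM in high glucose and 3.17 ± 0.850 CPM in low glucose (1.89-fold). Its activator Dbf4 averaged 6.49 ± 1.04 CPM in high glucose and 4.12 ± 0.966 CPM in low glucose (1.58-fold, adjusted p = 0.0301). The Dbf4 groups did not overlap but came close, at 5.56 CPM in the lowest high glucose and 5.52 CPM in the highest low glucose library. Its call was lost with library size alone as scaling (adjusted p = 0.0577) and without high glucose library 1 (0.0993) or 3 (0.0625) or low glucose library 1 (0.0813) or 3 (0.0905).

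Of the 5 genes of the replicative polymerases and primase, 3 rose, with a median log2 fold change of 0.52. Pole, the catalytic subunit of polymerase ε (ENSMUSG00000007080, chromosome 5, 110286306 to 110337474), stood apart from the rest. It measured 7.75, 5.93, 4.90 and 7.76 CPM in high glucose, against 1.25, 1.34, 1.09 and 1.44 CPM in low glucose. The lowest high glucose library held more than 3 times the highest low glucose library, and Pole rose 5.14-fold (log2 2.36 ± 0.21, adjusted p = 3.41e-05). Pold1, the catalytic subunit of polymerase δ, measured 15.1, 13.4, 10.7 and 14.3 CPM in high glucose, against 11, 13, 10.2 and 11.9 CPM in low glucose. Its groups overlapped, and the log2 difference of 0.21 ± 0.13 was not called (adjusted p = 0.268).

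Pola1, the catalytic subunit of polymerase α, had 14.6, 12.9, 11.2 and 14.7 CPM in high glucose and 8.45, 7.23, 8.19 and 10.1 CPM in low glucose. It rose 1.57-fold without overlap (log2 0.65 ± 0.14, adjusted p = 0.00556). Pola2, its accessory subunit, had 11.1, 14.7, 11 and 12.7 CPM in high glucose and 8.07, 8.78, 9.56 and 7.97 CPM in low glucose, again without overlap. It rose 1.44-fold (log2 0.52 ± 0.13, adjusted p = 0.0125). Prim1, the catalytic primase subunit, measured 12.4, 14.9, 10.4 and 13 CPM in high glucose, against 9.48, 11.3, 8.62 and 9.70 CPM in low glucose. High glucose library 3 lay below low glucose library 2, and the log2 difference of 0.38 ± 0.13 just missed the threshold (adjusted p = 0.0665). It passed without either of these libraries (0.0356 and 0.0284), with DESeq2 (0.0449) and with the replicate block (0.0114).

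Of 8 genes of the clamp, its loader and the joining of Okazaki fragments, 6 rose, with a median log2 fold change of 0.57. Rpa2, a subunit of the protein that coats single-stranded DNA (ENSMUSG00000028884, chromosome 4, 132768332 to 132778752), measured 15.2, 14.2, 13.1 and 11.5 CPM in high glucose, against 7.51, 10.1, 6.58 and 7.44 CPM in low glucose. It rose 1.71-fold (log2 0.77 ± 0.15, adjusted p = 0.00377) without overlap. Fen1, the nuclease that trims the flap of an Okazaki fragment, had 2.98, 2.13, 3.44 and 3.07 CPM in high glucose and 1.33, 1.12, 0.994 and 0.480 CPM in low glucose. It rose 2.94-fold (log2 1.55 ± 0.31, adjusted p = 0.00400), the only change of at least 2-fold in this group of genes. Lig1, which seals the fragments, averaged 18.4 ± 2.76 CPM in high glucose and 12 ± 2.29 CPM in low glucose (1.52-fold).

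Pcna, the sliding clamp, had the highest level of the 42 genes per gene length. It measured 76.2, 82.3, 57.8 and 69.7 CPM in high glucose, against 45.6, 58.4, 43.6 and 49.5 CPM in low glucose. High glucose library 3 lay just below low glucose library 2, and Pcna rose 1.45-fold (log2 0.54 ± 0.12, adjusted p = 0.00873). A processed copy, Pcna-ps2, held 41 counts in all 8 libraries together.

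Genes of the loader that opens the clamp had small changes. Rfc2 averaged 34.5 ± 2.45 CPM in high glucose and 26.7 ± 3.24 CPM in low glucose (1.30-fold, adjusted p = 0.0159), a call lost without low glucose library 1 (0.0527). Rfc4 averaged 6.43 ± 0.531 CPM in high glucose and 3.90 ± 1.28 CPM in low glucose (1.65-fold, adjusted p = 0.0307), and its call was lost without any library but low glucose 2, at adjusted p-values of 0.0526 to 0.0816. Rfc3 measured 10.1, 11.4, 8.67 and 10.6 CPM in high glucose, against 8.34, 8.52, 7.05 and 7.78 CPM in low glucose. The groups were separate, but the log2 difference of 0.36 ± 0.12 was not called (adjusted p = 0.0565). It was called with RLE size factors (0.0485), DESeq2 (0.0435), the replicate block (0.0238) and without high glucose library 3 (0.0374) or low glucose library 2 (0.0444). Rfc5 measured 13.8, 19.0, 15 and 15.2 CPM in high glucose, against 14.4, 14.0, 14.3 and 14.2 CPM in low glucose. High glucose library 1 was the lowest of all 8, and the log2 difference of 0.14 ± 0.11 was not called (adjusted p = 0.369).

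Of 5 genes of nucleotide supply, 4 rose, with a median log2 fold change of 1.09. Rrm2, the regulated subunit of ribonucleotide reductase (ENSMUSG00000020649, chromosome 12, 24708241 to 24714146), measured 16.8, 12.4, 10.5 and 11.4 CPM in high glucose, against 3.79, 5.36, 3.50 and 4.03 CPM in low glucose. It rose 3.07-fold without overlap (log2 1.62 ± 0.19, adjusted p = 0.000184). Rrm1, the large subunit, had 42.5, 39.7, 36.2 and 40.0 CPM in high glucose and 20.1, 26.6, 21.5 and 21.7 CPM in low glucose. It rose 1.76-fold (log2 0.82 ± 0.10, adjusted p = 0.000187).

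Tyms, which makes thymidylate, measured 13.4, 12.6, 7.83 and 11.5 CPM in high glucose, against 6.18, 5.09, 4.97 and 4.18 CPM in low glucose. It rose 2.21-fold (log2 1.15 ± 0.19, adjusted p = 0.00142), with high glucose library 3 well below the others of its group. Tk1, the cytosolic thymidine kinase, averaged 6.49 ± 1.00 CPM in high glucose and 3.03 ± 0.804 CPM in low glucose (2.12-fold). Dut, which breaks down dUTP, measured 37.8, 43.5, 36.5 and 32.7 CPM in high glucose, against 29.9, 44.3, 29.2 and 29.7 CPM in low glucose. Low glucose library 2 was the highest of all 8 while the other 3 low glucose libraries lay below every high glucose library. The log2 difference of 0.18 ± 0.14 was not called (adjusted p = 0.409), and without low glucose library 2 Dut passed (0.0160).

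All 4 genes that copy chromatin behind the fork rose, with a median log2 fold change of 1.35. Uhrf1, which binds newly copied DNA that carries methyl marks on the old strand (ENSMUSG00000001228, chromosome 17, 56303321 to 56323486), measured 13, 12, 7.35 and 11.2 CPM in high glucose, against 2.35, 4.12, 1.47 and 3.22 CPM in low glucose. It rose 3.92-fold without overlap (log2 1.97 ± 0.29, adjusted p = 0.000742). Its partner Dnmt1, the maintenance DNA methyltransferase, had 62.8, 46.7, 51.2 and 55.4 CPM in high glucose and 43.3, 36.4, 41.0 and 43.3 CPM in low glucose. It rose only 1.32-fold (log2 0.40 ± 0.10, adjusted p = 0.0138), and its call was lost with library size alone as scaling (0.0819). Chaf1b, a subunit of the histone chaperone CAF-1, had 8.13, 9.36, 5.80 and 5.74 CPM in high glucose and 3.15, 3.05, 1.99 and 2.59 CPM in low glucose. It rose 2.68-fold (log2 1.42 ± 0.22, adjusted p = 0.000998). Chaf1a, the large CAF-1 subunit, had 8.71, 5.67, 5.61 and 7.64 CPM in high glucose and 3.22, 3.75, 2.41 and 2.02 CPM in low glucose, also without overlap. It rose 2.42-fold (log2 1.28 ± 0.23, adjusted p = 0.00255).

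Levels were compared between genes on the authors' FPKM, which divide by a listed gene length, so the order of genes depends on that length. On that scale Pcna was highest in both groups, at 29.5 ± 4.13 in high glucose and 20.0 ± 2.67 in low glucose, followed by Dut at 15.4 ± 1.77 and 13.5 ± 2.94 and Gins4 at 9.72 ± 0.704 and 9.23 ± 0.852. Orc1 was lowest, at 0.223 ± 0.0913 in high glucose and 0.0962 ± 0.0346 in low glucose. The mean was below 1 FPKM for 6 of the 42 genes in high glucose and for 17 in low glucose. Genes with a low level had the larger fold changes: the 21 with the lower mean FPKM over all 8 libraries had a median log2 fold change of 1.18, and the other 21 one of 0.61. Across the 42 genes, Spearman's rho of log2 fold change with mean FPKM was −0.61, a description across genes that share the same libraries and are not independent.

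Subunits of the MCM ring and of GINS were closer to each other in level in high glucose. Within Mcm2 to Mcm7, the highest FPKM was 1.45 to 1.76 times the lowest in high glucose libraries and 2.87 to 5.78 times the lowest in low glucose libraries, and Mcm3 was the lowest in all 8. Within Gins1 to Gins4 the same ratio was 7.03 to 11.7 in high glucose libraries and 26.7 to 61.2 in low glucose, with Gins4 always highest. For Rfc2 to Rfc5, by contrast, the ranges overlapped, at 1.76 to 2.16 in high glucose libraries and 1.66 to 2.32 in low glucose libraries. The ranges also overlapped within Orc1, Orc2 and Orc6 and within Pola1, Pola2 and Prim1. The same was so for the pairs Cdc7 and Dbf4, Chaf1a and Chaf1b, and Rrm1 and Rrm2. On FPKM the order of the ribonucleotide reductase subunits differed between groups. Rrm2 over Rrm1 was 1.57, 1.24, 1.15 and 1.13 in high glucose libraries 1 to 4, against 0.750, 0.801, 0.646 and 0.739 in low glucose. That order rests on the listed lengths, 2771 bases for Rrm2 and 11012 for Rrm1. In CPM, Rrm1 was above Rrm2 in both groups, at means of 39.6 and 12.8 in high glucose and 22.5 and 4.17 in low glucose. Pole over Pold1 was 0.193 to 0.236 in high glucose libraries and 0.0448 to 0.0527 in low glucose, and Uhrf1 over Dnmt1 was 0.249 to 0.444 and 0.0619 to 0.196 in the same order. These ratios restate the gene changes above on another scale and carry no test of their own.

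**Figure D3:**
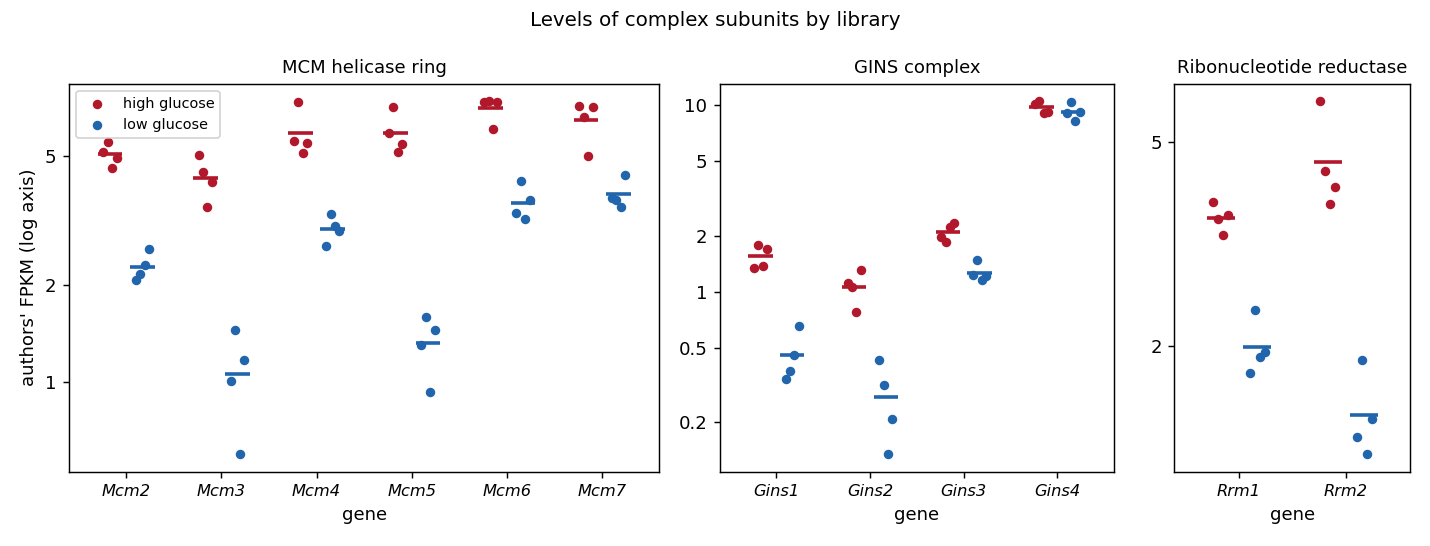
Authors' FPKM on a log axis for the subunits of the MCM ring, GINS and ribonucleotide reductase, with a point per library, a bar at the mean of 4, and high glucose left of low glucose for each gene. Mcm3 and Mcm5 lie well below the other ring subunits in low glucose only, Gins4 lies near 10 FPKM in both groups, and Rrm2 lies above Rrm1 in high glucose and below it in low glucose.

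The libraries of a group differed in the same direction across many of the 42 genes. Among high glucose libraries, number 3 was the lowest for 28 of the 42 genes and number 2 the highest for 20, while over all tested genes these libraries were lowest for 24.2% and highest for 32.0%. Among low glucose libraries, number 3 was the lowest for 24 of the 42 and number 2 the highest for 22, while over all tested genes these libraries were lowest for 23.6% and highest for 39.7%. Between libraries of the same number, the median log2 ratio over the 42 genes was 0.98, 0.82, 0.83 and 0.89 for numbers 1 to 4. Within each number, 41 or 42 of the 42 genes were higher in high glucose, and 39 were higher within all 4.

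Other genes of the fork and of origins rose less uniformly. Of 40 such genes, 19 rose (47.5%) and none fell with edgeR, against 13.1% and 11.9% of all tested genes. The median log2 fold change of the list was 0.43. With the replicate number as a block 22 rose and 1 fell, against 18.9% and 18.5% of all tested genes. The 1 that fell was Rnaseh2b, a subunit of ribonuclease H2 named after its values were seen. Rnaseh2b averaged 9.33 ± 1.48 CPM in high glucose and 12.8 ± 2.07 CPM in low glucose (adjusted p = 0.00704 with the block and 0.0511 without it). It was lower in high glucose within all 4 numbers. At an unadjusted p under 0.05 without the block the count lower was also 1, which DESeq2 called and limma-voom did not. Dtl, which directs CDT1 to degradation in S phase, averaged 7.31 ± 2.47 CPM in high glucose and 1.38 ± 0.203 CPM in low glucose (5.30-fold, adjusted p = 0.000145). Exo1, an exonuclease, averaged 3.42 ± 0.480 and 0.665 ± 0.256 CPM in the same order (5.17-fold, adjusted p = 0.000263). Timeless, of the fork protection complex, rose 2.79-fold and Topbp1, an initiation and checkpoint factor, 1.65-fold. Direct partners of members, named after their values were seen, did not all follow. Pold2 and Pole2, the second subunits of polymerases δ and ε, rose 1.54-fold and 2.15-fold (adjusted p = 0.0158 and 0.0089). Prim2 and Pole3 rose 1.60-fold and 1.33-fold (adjusted p = 0.0402 and 0.0167). Both calls were lost without low glucose library 3 (0.0840 and 0.0547), among other settings. Orc5, Pole4, Pold3 and Rfc1, at log2 differences of 0.28, 0.23, 0.15 and 0.13, were not called. Nor were Orc4 and Pold4, at −0.07 and 0.01. Rpa1, the large subunit that pairs with Rpa2, averaged 96.9 ± 6.40 CPM in high glucose and 97.6 ± 4.74 CPM in low glucose (adjusted p = 0.931), and Rpa3 averaged 9.85 ± 1.09 and 9.69 ± 1.95 CPM in the same order (adjusted p = 0.920). Orc3 averaged 47.5 ± 2.77 CPM in high glucose and 47.7 ± 1.52 CPM in low glucose (adjusted p = 0.945), a log2 difference of −0.01 ± 0.07. Fitted log2 differences of Rpa1, Rpa3 and Orc3 were so near 0 that their sign changed with the scaling or with a library left out.

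**Figure D4:**
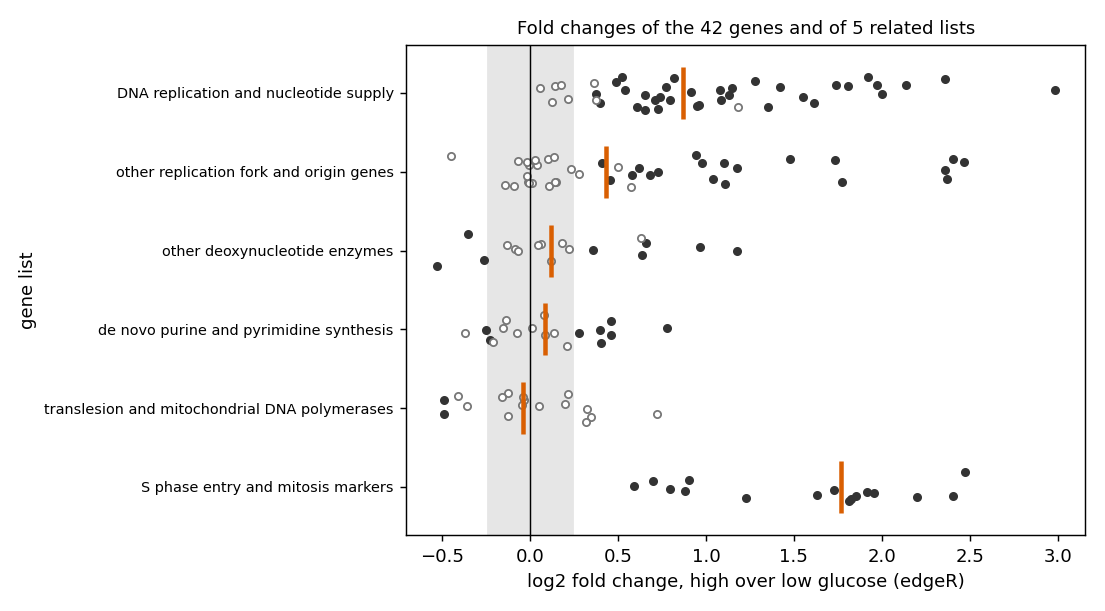
Log2 fold change of high over low glucose for the 42 genes and 5 other lists, with a point per gene, filled where the adjusted p was under 0.05, an orange bar at the median, and a grey band over the quartiles of all tested genes. All 16 markers of S phase entry and mitosis are filled and above 0, while the translesion and mitochondrial polymerases centre near 0.

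Of 17 other deoxynucleotide enzymes, 5 rose (29.4%) and 3 fell (17.6%), against 13.1% and 11.9% of all tested genes. The median log2 fold change of the list was 0.12. Rrm2b, the reductase subunit that serves non-dividing cells and is induced by p53, measured 42.6, 53.9, 50.4 and 50.5 CPM in high glucose, against 72.9, 67.6, 71.4 and 72.6 CPM in low glucose. Every high glucose library lay below every low glucose library, and Rrm2b fell by 0.53 on the log2 scale (SE 0.08, adjusted p = 0.000813). Tk2, the mitochondrial thymidine kinase, averaged 29.3 ± 2.38 CPM in high glucose and 37.4 ± 3.53 CPM in low glucose (adjusted p = 0.0153). Dguok, the mitochondrial deoxyguanosine kinase, averaged 20.2 ± 1.43 and 24.2 ± 1.47 CPM in the same order (adjusted p = 0.0379). Dck, the deoxycytidine kinase, rose 1.58-fold (adjusted p = 0.00144). Nme1 rose 1.55-fold and Nme2, a close copy whose reads may be split with it, 1.96-fold.

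Several of these calls lay near the threshold and were lost with any of several libraries left out, while the fold changes stayed similar. Dguok lost its call, at adjusted p-values of 0.0546 to 0.106, without high glucose library 1, 3 or 4 or low glucose library 1, 2 or 4, at log2 fold changes of −0.28 to −0.22. Nme1 lost it without high glucose library 2 (0.0512) or low glucose library 1 (0.0577) or 4 (0.0553), at log2 fold changes of 0.57 to 0.60. Nme2 lost it, at 0.0671 to 0.0843, without high glucose library 1, 2 or 4 or low glucose library 1 or 4, at log2 fold changes of 0.80 to 0.98. With no filter on low counts, Nme2 (0.051) and Dguok (0.0850) were not called either, nor was Dguok with upper quartile scaling (0.0541). The number of these 17 enzymes that rose was 2 without high glucose library 2 or low glucose library 1 or 4, and 3 without high glucose library 1. Rrm2b overlaps the predicted gene Gm49085.

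**Figure D5:**
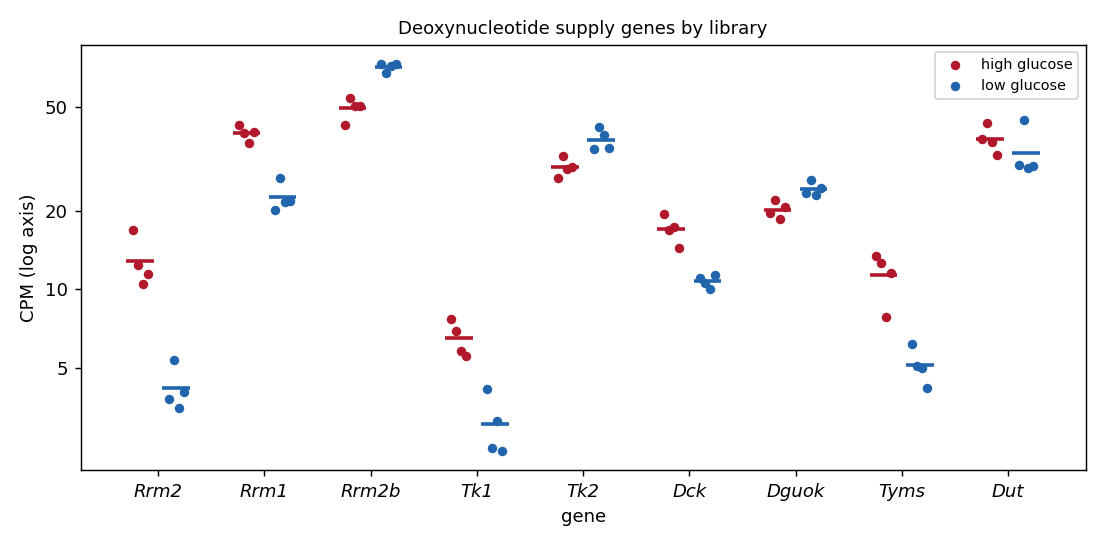
CPM on a log axis for 9 genes of deoxynucleotide supply, with a point per library, a bar at the mean of 4, and high glucose left of low glucose for each gene. Rrm2, Rrm1, Tk1, Dck and Tyms lie higher in high glucose, Rrm2b, Tk2 and Dguok lie lower, and Dut overlaps.

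Of 18 genes of de novo purine and pyrimidine synthesis, 6 rose (33.3%) and 2 fell (11.1%), against 13.1% and 11.9% of all tested genes. The median log2 fold change of the list was 0.08. Ppat, the committing enzyme of purine synthesis, averaged 164 ± 15.5 CPM in high glucose and 95.6 ± 4.21 CPM in low glucose (1.72-fold, adjusted p = 8.60e-05), and it overlaps its divergent neighbour Paics. Cad, which starts pyrimidine synthesis, rose 1.38-fold, Umps, which completes UMP, 1.32-fold, and Impdh1, of guanine nucleotide synthesis, 1.38-fold. Atic and Prps2 fell by 0.23 and 0.25 on the log2 scale (adjusted p = 0.0242 and 0.0402), and neither was called without high glucose library 1 or 3 or low glucose library 3 or 4 (adjusted p of 0.0514 to 0.0741 for Atic and 0.0842 to 0.118 for Prps2). Prps2 also lost its call without high glucose library 4 (0.104) and Atic without high glucose library 2 (0.0530), so that 0 to 2 genes of this list fell when 1 library was left out. With no filter on low counts neither was called (0.072 for Atic and 0.0761 for Prps2), nor was Prps2 with upper quartile scaling (0.0508).

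Of 18 translesion and mitochondrial DNA polymerase genes, 17 were tested, none rose and 2 fell (11.8%), against 13.1% and 11.9% of all tested genes. The median log2 fold change of the list was −0.04. At an unadjusted p under 0.05, edgeR placed 4 higher, while DESeq2 and limma-voom called 0 higher. Once the replicate block was added, 4 of the 17 rose and 3 fell, against 18.9% and 18.5% of all tested genes. Twnk, the mitochondrial replicative helicase, averaged 12.1 ± 0.992 CPM in high glucose and 17 ± 0.645 CPM in low glucose and fell by 0.49 on the log2 scale (adjusted p = 0.00320). Poli, a translesion polymerase, averaged 6.42 ± 0.657 and 9.02 ± 0.893 CPM in the same order (adjusted p = 0.0189). Poli was not called without high glucose library 2 or 4 or low glucose library 3 or 4, at adjusted p-values of 0.0510 to 0.0576.

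All 16 markers of S phase entry and mitosis rose, against 13.1% of all tested genes, in a list chosen with earlier results of these data known. Their median log2 fold change was 1.77, and 14 to 16 of them rose when 1 library was left out. Mki67, a marker of cycling cells, averaged 30.4 ± 8.08 CPM in high glucose and 5.43 ± 1.17 CPM in low glucose (5.55-fold, adjusted p = 2.54e-05). Top2a, the topoisomerase of dividing cells, averaged 35.8 ± 6.77 and 6.74 ± 1.58 CPM in the same order (5.29-fold, adjusted p = 1.62e-05). Foxm1, a regulator of mitotic genes, rose 3.62-fold and Ccna2, the S phase cyclin A2, 3.31-fold.

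Markers of other cell types were measured beside these changes. Over all tested genes, the shares that rose and fell were 13.1% and 11.9%, or 18.9% and 18.5% with the replicate block. Of 10 β-cell markers 2 rose (20%) and 4 fell (40%). The called markers are named after their values were seen. G6pc2 and Iapp rose, at log2 fold changes of 0.95 and 0.70. Ucn3, Slc2a2, Mafa and Slc30a8 fell, at −0.79, −0.52, −0.47 and −0.29. The 10 markers summed to between 207974 and 274204 CPM in high glucose and between 187418 and 267799 CPM in low glucose. Ins2 alone averaged 160598 and 153598 CPM in the same order, so the sum says little of the other markers. Of 6 α-cell markers Gc rose and none fell with edgeR, while 1 was lower at an unadjusted p under 0.05, with DESeq2 and with the replicate block. None of 5 markers of δ and PP cells was called by edgeR, while 1 was higher at an unadjusted p under 0.05, with limma-voom and with the block. None of 11 tested acinar markers was called by edgeR, DESeq2 or limma-voom, nor was any at an unadjusted p under 0.05. Their sum ran from 3296 to 17743 CPM in high glucose and from 1174 to 10205 CPM in low glucose, and was highest in libraries 1 and 4 of each group. With the replicate block 7 of the 11 were called higher, against 18.9% of all tested genes. None of 9 fibroblast and stellate markers was called by the 3 tools, and 1 was higher at an unadjusted p under 0.05. All 9 had a fitted log2 fold change above 0, with a median of 0.94. The same held for all 11 tested acinar markers, with a median of 0.70. Fibroblast and stellate markers summed to 1162, 332, 302 and 162 CPM in high glucose libraries 1 to 4, against 130, 337, 277 and 139 CPM in low glucose libraries. High glucose library 1 thus stood apart. Without that library 31 of the 42 replication genes rose, with a median log2 fold change of 0.86. That count concerns this library only, and the part of fibroblasts and stellate cells in the rise was not tested.

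Of 8 ductal markers Spp1 rose and 1 fell (12.5% each), against 13.1% and 11.9% of all tested genes. Their sums were 715 to 753 CPM in high glucose libraries and 592 to 713 CPM in low glucose. Endothelial markers summed to 30.4 to 38.5 CPM in high glucose and 35.1 to 44.7 CPM in low glucose. Macrophage markers summed to 216 to 325 and 252 to 409 CPM, and Schwann cell markers to 17.1 to 27.4 and 14.3 to 23.7 CPM, in the same order. None of these 3 lists held a gene called by the 3 tools. With the block, 2 of 8 macrophage markers were called lower, against 18.5% of all tested genes. At an unadjusted p under 0.05, 1 endothelial marker was higher and 1 lower. Among lymphocyte markers only Cd79a passed the filter, and it fell, at 2.56 ± 0.417 CPM in high glucose and 7.0 ± 1.32 CPM in low glucose. Cd3g and Ms4a1 were at 0 counts in high glucose libraries 3 and 4 and low glucose libraries 3 and 4, and the marker sums were 2.26 to 5.10 CPM in high glucose and 5.97 to 9.37 CPM in low glucose. Median log2 fold changes were −0.04 for β-cell, −0.15 for α-cell and −0.04 for δ and PP cell markers. They were 0.21 for ductal, −0.15 for endothelial, −0.14 for macrophage and 0.19 for Schwann cell markers. The part of these cell types in the rise of the replication genes was not tested.

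In the authors' deposited table, 36 of the 42 genes were higher in high glucose at an adjusted p under 0.05 and none was lower, against 8.11% higher and 7.11% lower of its 27534 genes. The median log2 fold change of the 42 genes there was 0.87. Of the 42 genes, 12 overlap another tested gene (Orc2, Orc6, Mcm7, Cdc45, Gins2, Rfc2, Rfc4, Rfc5, Fen1, Lig1, Tk1 and Chaf1a), so their values are uncertain while the strand setting is not given. Of the 30 without such an overlap, 24 rose.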

How the data were processed

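The NEBNext Ultra kit was used for the libraries, per the labels' protocols. STAR 2.5, HTSeq 2, DESeq2 (no version) and the builds mm10 and GRCm38 are named in the submitters' processing notes. How strand and multi-mapping reads were handled, and from which annotation release, is not given in the sources used here. Per the file headers, the authors' table holds whole-number read counts per gene and library, and these counts were tested. A second deposited block is a signal, the counts over a size factor of each library, used only to check them. The authors' FPKM divide the count by a listed gene length and a library total, and that length equals the exon union in GENCODE M21 for all members but Pola2. The authors also deposited a log2 fold change and p-values of their own.

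Counts were tested with edgeR 4.0.16 (R 4.3.3): TMM scaling, filterByExpr (minimum count 10, minimum total 15), a quasi-likelihood model with group as the only term over all 8 libraries, and Benjamini-Hochberg adjustment over all 15442 genes tested. Fold changes are given as high over low glucose. Their standard errors are |log2 fold change|/√F, and CPM use the TMM-adjusted library size. The procedure was tested on simulated data. Alternatives were RLE, upper quartile and no scaling beyond library size, no filter, at least 1 CPM in at least 4 libraries, DESeq2 1.42.0, voom of limma 3.58.1, the replicate number as a block and leaving out each library. Libraries of the same number deviated together from their group means (correlations over genes of 0.101, 0.449, 0.404 and 0.475 for numbers 1 to 4, all above 0.1), so the numbers count as pairs by that rule, although for number 1 only barely. Between libraries of different numbers the correlations ran from −0.367 to 0.207. The highest of these joined low glucose library 1 to high glucose library 4, above its value with high glucose library 1. With the block 18.9% of genes rose and 18.5% fell. Libraries of a group differed by a chi-square of 14.3 to 61.6 per gene, so none was a copy of another.

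Values per library are given, within each role, for the 3 members with the smallest adjusted p, those with the largest and smallest fold change and those not called. Of each other list up to 4 called genes in each direction fall under the naming rule, and of each cell type list the 2 most abundant. Some genes of these lists are counted but not reported here by name. The members and lists were chosen with earlier results of these data known. Promoter windows of Gins1, Mcm4, Rfc2, Pole, Gins2 and Gins4 were not used here. Cd3e, Cd8a and Nkg7 were not analysed here.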

Additional observations from a re-analysis of the deposited data

Results flagged for a closer look

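In 84 groups of 4 values (each of the 42 genes in each glucose group), 3 held a library whose distance to the nearest of the other 3 took up more of the range of the group than the 95% critical value of the Dixon test. Chance gives this in about 1 of 20 groups. Mcm6 was at 28.24 CPM in high glucose library 3, against 34.57 to 34.98 CPM in the other high glucose libraries, a gap of 0.939 of the range. Mcm10 was at 0.4734 CPM in low glucose library 3, against 1.137 to 1.2 CPM in the other low glucose libraries (0.913 of the range). Dut was at 44.35 CPM in low glucose library 2, against 29.21 to 29.95 CPM in the other low glucose libraries (0.951 of the range).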

How the results depend on the processing

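Of the 34 genes that rose, 29 rose in each of 16 alternative settings, and the 5 exceptions were Orc6, Dbf4, Rfc2, Rfc4 and Dnmt1. Of the 8 genes not called, Orc1, Prim1, Rfc3 and Dut were called in some setting, and Orc1 was not tested with the filter of 1 CPM. The number of members that rose was 30 to 37 without 1 library and 37 with the replicate block, 36 with DESeq2, 32 with library size alone and 34 or 35 in the other settings. Over all genes, 2862 were lower with the block and 1831 without it. Of the genes in the 5 related lists 7 were lower, against 4 without a filter and 3 to 8 without 1 library. Of the cell type markers 4 were higher, against 15 with the block, where 18.9% of all tested genes were higher instead of 13.1%. E2F-like letters stood in 58.3% of member windows of 300 bases and 33.3% of windows of 150 bases. With library size alone, log2 differences changed sign to −0.025 for Gins4, −0.045 for Rpa3 and −0.071 for Pold4. With upper quartile scaling they changed sign to 0.00047 for Rpa1 and 0.0038 for Orc3. Without 1 library, log2 differences ranged between −0.044 and 0.025 for Rpa1, −0.058 and 0.173 for Rpa3, −0.035 and 0.022 for Orc3, and −0.044 and 0.051 for Pold4, so that their sign changed. The cause was not tested. Depth limits the levels in low glucose most for Orc1, Cdc6, Mcm10, Gins1 and Fen1, the members whose mean there was under 1 CPM. Among these, Cdc6, Mcm10, Gins1 and Fen1 were still called in each of the 16 settings.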
